A study of Mus musculus with 7 samples.

Results

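The genes described here are 10 genes of the MHC class I presentation pathway, measured by RNA-seq in pancreatic islets of second-generation (F2) male mice. They were chosen by name: the heavy chain genes H2-K1 and H2-D1, the light chain gene B2m, the peptide transport and loading genes Tap1, Tap2 and Tapbp, the immunoproteasome genes Psmb8, Psmb9 and Psmb10, and the transactivator gene Nlrc5. All 10 were found among the 21899 genes of the files, each under 1 Ensembl identifier. The labels place 3 samples in the control group and 4 in the hyperandrogenism group, called control-F2 and AE-F2 (androgen exposure) here. Replicate 1 of control-F2 and replicate 4 of AE-F2 were used, 1 library each, and the other 5 samples were not analysed here. The mice were of the strain C57BL/6J. The founder dams of the AE line received dihydrotestosterone under the skin in late gestation and those of the control line received vehicle. F1 sons, exposed before birth, sired the F2 males with unexposed wild-type females, and the F2 males themselves were given no androgen. Islets were freed with collagenase, picked by hand and kept in culture medium. The age of these F2 males and the number of animals in a library were not given in the sources used here.

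MHC class I molecules carry peptides made inside a cell to its surface, where CD8+ T cells read them. Proteasomes cut proteins into peptides, the TAP transporter moves the peptides into the endoplasmic reticulum, and tapasin holds an empty heavy chain and its light chain at the transporter until a peptide fits. Nearly all nucleated cells express these genes, lymphocytes at high levels, and in islets class I is best known for its strong induction by interferons in autoimmune diabetes.

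The libraries held 16285888 (control-F2) and 21278513 (AE-F2) estimated counts. As the 1 library per group used here gives no replicate error, the conditions were not tested. Each ratio of AE-F2 over control-F2 is therefore given with a 95% Clopper-Pearson interval that covers counting error only, called the counting interval, which sets 2 libraries side by side and says nothing on the spread between animals. CPM are counts scaled to library size with TMM factors, which sets the bulk of genes equal between the libraries. The 13 islet endocrine markers, Ins1, Ins2, Iapp and Gcg among them, were all detected and summed to 233097 CPM in control-F2 and 239890 in AE-F2. The insulin genes dominate that sum. Of the single markers, 4 had counting intervals above equality, Gcg (glucagon) at 1.37-fold among them, and 5 below. Among all genes averaging 100 counts or more, 12.2% lay above and 16.1% below. Many of the 13 have far more counts than that, where small differences leave the interval. The islets were sequenced in bulk, so more cells of a type and more RNA per cell cannot be told apart.

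In GENCODE M21 (GRCm38), 7 of the 10 genes lie on chromosome 17, within or beside the major histocompatibility complex. Psmb9, Tap1, Psmb8 and Tap2 stand next to each other from 34181987 to 34216321, a stretch of 34.3 kb. Tapbp lies at 33915899 to 33929292, H2-K1 at 33996017 to 34000347 and H2-D1 at 35262730 to 35267499 of the same chromosome. B2m is on chromosome 2 (122147686 to 122153083), and Psmb10 (105935735 to 105938444) and Nlrc5 (94434356 to 94527272) are on chromosome 8. Counts for a gene are taken over its exons. The exons of Tap1 and Psmb9 share 212 bases, and those of Tapbp share 149 with Zbtb22. Other overlaps are with opposite-strand genes that are not among the genes counted. Tapbp shares 904 bases with Gm19412, Tap2 533 with Gm15821 and 165 with Gm20496, Psmb8 498 with Gm20496, and Nlrc5 78 with 9330175E14Rik. Reads in such stretches cannot be assigned for certain: Tap1 and Psmb9 lie on opposite strands and the use of strand in counting was not stated, and Tapbp and Zbtb22 lie on the same strand.

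RefSeq promoter windows (GRCm38.p6, 250 bases before a gene's start to 50 after it) were found for 8 of the 10 genes, and not for Tap2 or Nlrc5. The upstream parts of H2-K1, H2-D1 and B2m are shown first because the heavy chain genes and the light chain gene, whose products form 1 complex, differed in their ratios between the libraries. Capitals mark, from left to right in the heavy chain genes, the κB site, the core bound by interferon regulatory factors (IRF; AANNGAAA, here on the opposite strand), the X2 box core (TGACG) and the Y box core (ATTGG). In B2m the first capitals are the interferon-stimulated response element core (GAAA, any 2 bases, GAAA), which overlaps an IRF core. The κB site was searched only in the exact letters marked in the heavy chain genes. Variant forms of it were not searched for, so the lack of such capitals in B2m does not mean that B2m has no κB site.
H2-K1, chr17:34000353-34000464, minus strand: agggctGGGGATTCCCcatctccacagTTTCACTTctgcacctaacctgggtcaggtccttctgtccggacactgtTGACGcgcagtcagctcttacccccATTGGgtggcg
H2-D1, chr17:35262917-35263028, plus strand: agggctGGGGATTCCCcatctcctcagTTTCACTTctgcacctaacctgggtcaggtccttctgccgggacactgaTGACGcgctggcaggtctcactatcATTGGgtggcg
B2m, chr2:122147542-122147644, plus strand: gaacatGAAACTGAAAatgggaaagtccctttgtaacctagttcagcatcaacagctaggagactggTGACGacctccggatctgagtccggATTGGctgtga

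Counted from the RefSeq start of the gene, the X2 box core began at position -41 in H2-K1 (in the first of its 2 windows), -101 in H2-D1 and -78 in B2m. GENCODE M21 starts H2-D1 further upstream, so that the stretch printed for it lies inside the gene by the coordinates above. In these 3 promoters TGACG was followed by exactly 20 other bases and then ATTGG. The X2 and Y boxes belong to the module through which NLRC5, with the RFX factors, CREB/ATF1 and NF-Y, is known to act on class I genes. This spacing was noticed when the sequences were read and was then searched on both strands of all windows. It was found in 31 of 32851 windows (0.0944%), which belong to 27 gene symbols, whereas TGACG alone was in 20.8% of windows and ATTGG in 37.4%. The IRF core was in 23.9% of windows, the response element core in 3.44% and the κB site, in the letters shown, in 0.107%. None of these sequences was found in the windows of Psmb8 and Psmb10, and Tapbp held only ATTGG.

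Tap1 and Psmb9 are read in opposite directions, and by the RefSeq starts 225 bases lie between them. GENCODE M21 extends Psmb9 past the start of Tap1, so by that annotation the stretch lies within Psmb9. It is shown because both genes were higher in the AE-F2 library. Capitals mark the Y box core near the start of Psmb9, which here reads on the opposite strand, and the X2 box core closer to Tap1. They are not at the spacing above.
Tap1 and Psmb9, chr17:34187331-34187555, plus strand, the direction of Tap1: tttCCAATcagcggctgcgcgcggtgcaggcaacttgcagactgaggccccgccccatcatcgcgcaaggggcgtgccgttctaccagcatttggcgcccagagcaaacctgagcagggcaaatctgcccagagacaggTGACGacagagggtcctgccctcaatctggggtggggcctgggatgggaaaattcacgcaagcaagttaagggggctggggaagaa

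Between the 2 libraries the class I genes did not move as a block. B2m, Tap1, Psmb8, Psmb9 and Nlrc5 were 1.30-fold to 1.86-fold higher in AE-F2, H2-D1 was 1.05-fold higher, and H2-K1, Tap2, Tapbp and Psmb10 had counting intervals that included equality. The counting interval thus lay above equality for 6 of the 10 genes and below it for 0. Over all 13627 genes whose counts averaged 10 or more, it lay above equality for 13.4% and below for 13.4%. None of the 10 reached 2-fold, which 3.16% of all genes did upwards and 0.653% downwards. Nlrc5 alone passed 1.5-fold, against 6.04% of all genes upwards and 2.19% downwards. Of the 8 members whose counts averaged 100 or more, 4 had an interval above equality and 0 below, beside 12.2% and 16.1% of all genes at that level. The median log2 ratio of the 10 genes was 0.23, and that of all genes tested was 0.00. Over the 8 members whose counts averaged 100 or more, without Psmb9 and Nlrc5, it was 0.07, and over all genes at that level -0.01. As a sum, the 10 genes changed little, from 922 to 969 CPM, since the heavy chains made up most of it.

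**Figure D1:**
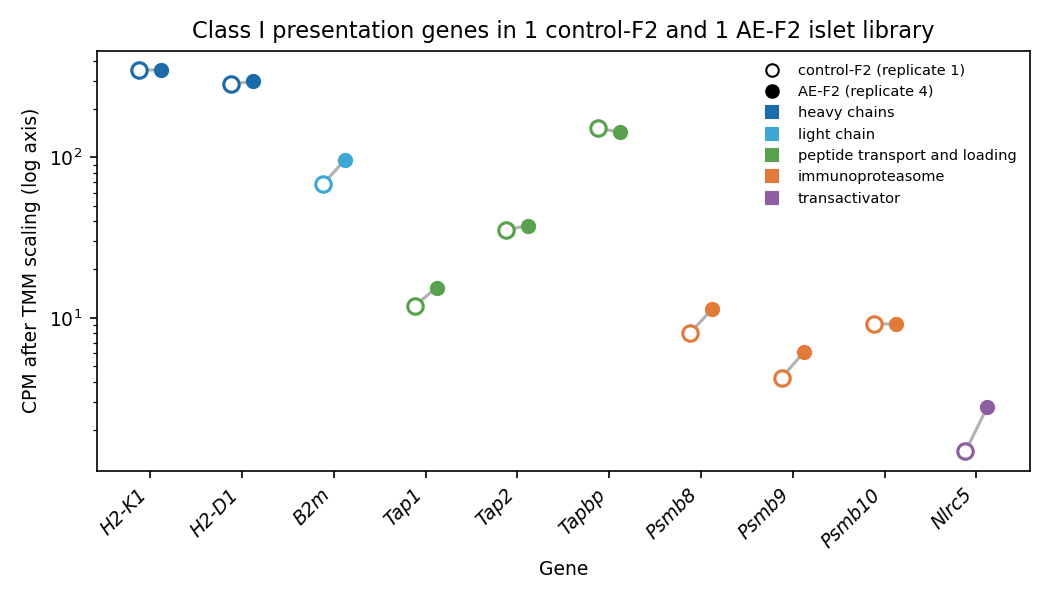
Level of each class I presentation gene (CPM after TMM scaling, log axis) in the control-F2 library (open circles) and the AE-F2 library (filled circles), 1 library each, coloured by role. B2m, Tap1, Psmb8, Psmb9 and Nlrc5 stand visibly higher in AE-F2, whereas H2-K1 and Psmb10 lie at the same height in both.

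The classical heavy chains bind the peptide and are the part that T cells see. H2-K1 had 5688 counts in control-F2 and 7440 in AE-F2, which is 349 and 350 CPM. The ratio was 1.00 with a counting interval from 0.970 to 1.04, so any difference between these libraries was small. H2-D1 had 4638 counts in control-F2 and 6316 in AE-F2 (284 and 297 CPM), a ratio of 1.05 (1.01 to 1.09). Heavy chain genes are near-identical copies whose reads the counting tool divides between them. H2-D1 was the only one of the 10 with a deposited count that was not whole, and 8 of the 12 H2 class I heavy chain genes with any count had such values, so its ratio is uncertain. Summed over the 18 H2 class I heavy chain genes in the files, which does not depend on that division, there were 13507 counts in control-F2 and 18100 in AE-F2, a ratio of 1.03 (1.01 to 1.05).

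B2m encodes the light chain, β2-microglobulin, without which heavy chains do not reach the cell surface. It had 1104 counts in control-F2 and 2041 in AE-F2, or 67.7 and 96.0 CPM. The ratio was 1.42, with a counting interval from 1.32 to 1.53, and the interval lay wholly above those of H2-K1 and H2-D1. A direct comparison of genes within the libraries needs no scaling, and 12 such pairs were computed. Relative to H2-K1, B2m was 1.41-fold higher in AE-F2 (exact 95% interval 1.30 to 1.53), and relative to H2-D1 it was 1.36-fold higher (1.25 to 1.48). H2-D1 relative to H2-K1 differed by 1.04-fold with an interval that included equality (0.989 to 1.10).

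**Figure D2:**
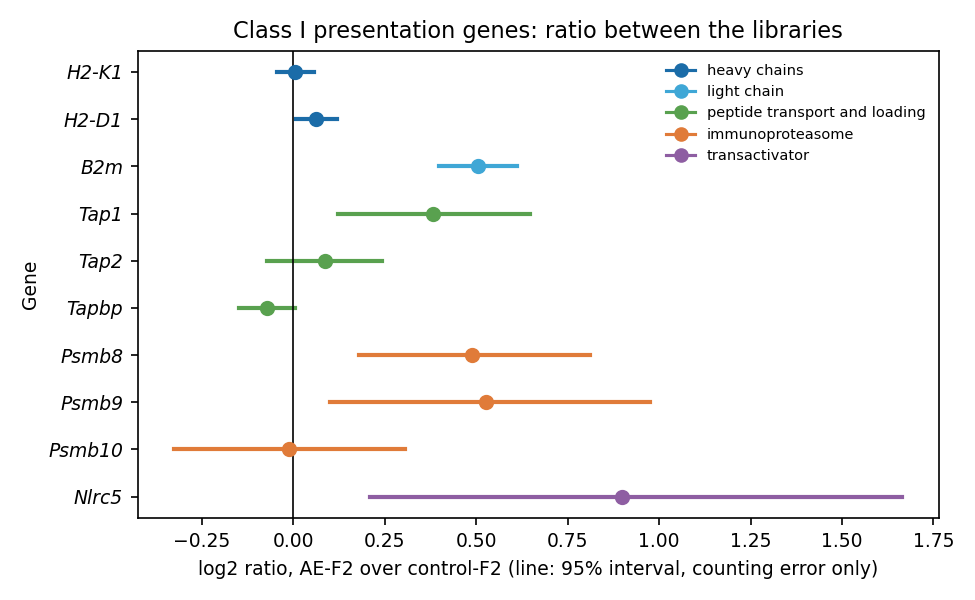
Log2 ratio (AE-F2 over control-F2) for each class I presentation gene (points), with the 95% counting interval (lines) and equality as a vertical line at 0. The intervals of H2-D1, B2m, Tap1, Psmb8, Psmb9 and Nlrc5 lie to the right of 0, and that of Nlrc5, from 0.21 to 1.67, is the widest.

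Tap1 and Tap2 encode the subunits of the peptide transporter, and Tapbp encodes tapasin. Tap1 had 193 counts in control-F2 and 328 in AE-F2 (11.8 and 15.4 CPM), a ratio of 1.30 (1.09 to 1.57). Tap2 had 577 and 798 counts (35.4 and 37.6 CPM), and its ratio of 1.06 had an interval from 0.952 to 1.18. Relative to Tap2, Tap1 was 1.23-fold higher in AE-F2, with an interval that just included equality (0.994 to 1.52), so unequal change of the transporter's parts was not detectable at this depth. Tapbp was the only one of the 3 with a lower value in AE-F2, at 2462 and 3053 counts (151 and 144 CPM) and a ratio of 0.952 (0.902 to 1.004). Relative to Tapbp, Tap1 was 1.37-fold higher (1.13 to 1.66).

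The immunoproteasome replaces the catalytic subunits of the standard proteasome by 3 interferon-inducible ones: Psmb8 takes the place of Psmb5, Psmb9 that of Psmb6 and Psmb10 that of Psmb7. Psmb8 had 131 counts in control-F2 and 240 in AE-F2 (8.03 and 11.3 CPM), a ratio of 1.40 (1.13 to 1.75). Psmb9 had 69 and 130 counts (4.23 and 6.12 CPM), a ratio of 1.44 (1.07 to 1.97). Psmb10 had 150 and 194 counts (9.20 and 9.13 CPM), a ratio of 0.992 with an interval from 0.798 to 1.24. Relative to Psmb10, Psmb8 was 1.42-fold higher in AE-F2 (1.04 to 1.94). Psmb9 was 1.46-fold higher by the same measure, with an interval that reached equality (1.00 to 2.13).

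The standard counterparts Psmb5, Psmb6 and Psmb7 had ratios of 1.04, 1.02 and 1.15, and only the interval of Psmb7 lay above equality. Relative to its counterpart, Psmb8 was 1.35-fold higher in AE-F2 (1.06 to 1.73) and Psmb9 1.41-fold higher (1.03 to 1.95). Psmb10 relative to Psmb7 was 0.863 (0.678 to 1.10). The intervals of 2 of the 3 pairs thus left equality narrowly, with lower bounds of 1.06 and 1.03. They come from 12 pairs without adjustment for their number, and no share over other pairs of genes was computed. For single genes, the interval lay above equality in 13.4% of all genes tested and below in 13.4%. Per transcript length (TPM, by the median transcript length of GENCODE M21), Psmb8 stood at 12.5% of the level of Psmb5 in control-F2 and at 16.8% in AE-F2. Psmb9 stood at 8.62% and 12.2% of Psmb6, and Psmb10 at 58.5% and 50.5% of Psmb7. In each pair the standard subunit was the more abundant in both libraries, and this held with the longest transcript of each gene, where the percentages for Psmb8 were 9.53% and 12.9%.

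**Figure D3:**
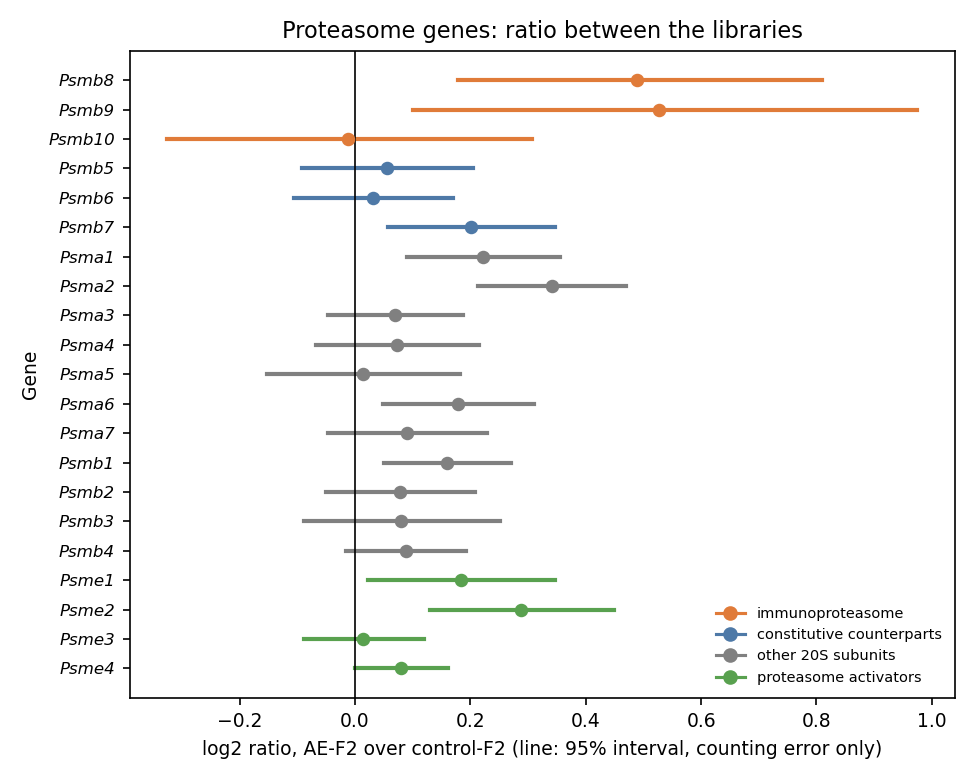
Log2 ratio (AE-F2 over control-F2) with the 95% counting interval for the immunoproteasome subunits, their constitutive counterparts, the other 20S core subunits and the proteasome activators. Psmb8 and Psmb9 have the largest ratios but wide intervals, and Psmb10 lies at equality.

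Both kinds of catalytic subunit sit in the 20S core. Of its 11 other genes, 4 had an interval above equality, 0 below and 7 including it, beside 12.2% above and 16.1% below among all genes averaging 100 counts or more, and the median log2 ratio was 0.09. Those with the most counts were Psmb4 (log2 ratio 0.09), Psmb1 (0.16), Psma3 (0.07) and Psma2 (0.34). The caps Psme1 and Psme2, which form the interferon-inducible PA28 activator, had log2 ratios of 0.18 (interval 0.02 to 0.35) and 0.29 (0.13 to 0.45). The other activators Psme3 and Psme4 had log2 ratios of 0.01 and 0.08, with intervals that included equality.

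Nlrc5, the class I transactivator, was the least abundant of the 10 genes. It had 24 counts in control-F2 and 59 in AE-F2, or 1.47 and 2.78 CPM. Its ratio was the largest, 1.86, but the counting interval from 1.16 to 3.17 was also the widest, because so few counts lie behind it. Ratios scattered widely among genes at such low counts, as the left of the plot of all genes shows.

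**Figure D4:**
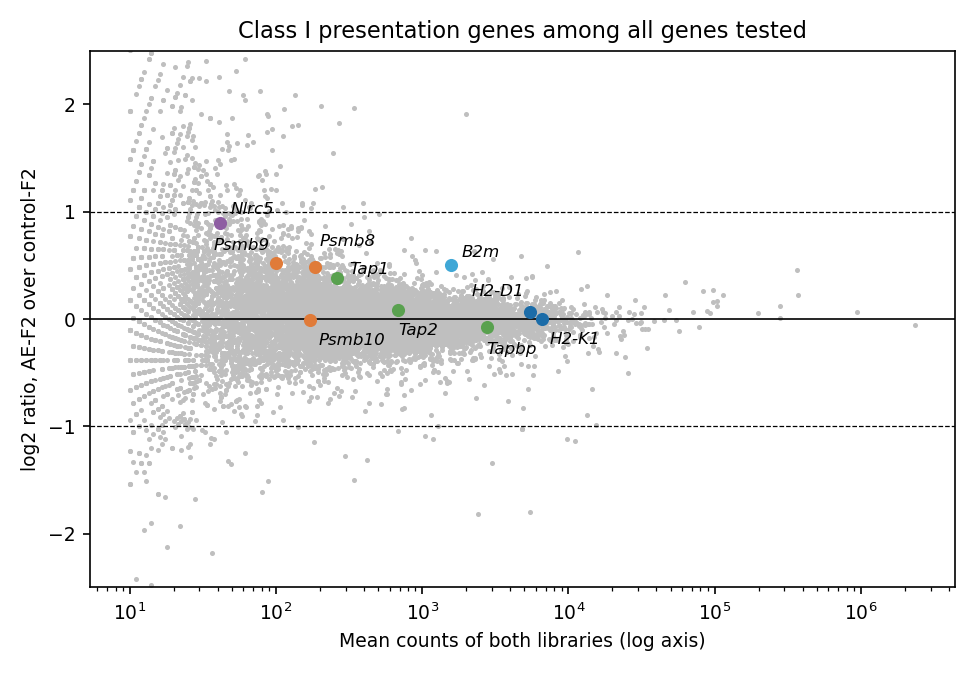
Log2 ratio (AE-F2 over control-F2) plotted against mean counts (log axis) for the 13627 genes tested (grey), with the class I presentation genes coloured by role. Dashed lines mark 2-fold, and 123 genes lie outside the plotted range. Scatter widens toward low counts, where Nlrc5 lies, while B2m, at 0.50, lies above the bulk of genes of its own level.

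Levels of the 10 genes were compared with each other per transcript length. By the median transcript length, H2-D1 (487 TPM in control-F2, 504 in AE-F2) and H2-K1 (389 and 386) were the highest, followed by Tapbp (223 and 210), Tap2 (89.9 and 94.4) and B2m (75.6 and 106). Psmb10 (11.2 and 11.01), Psmb8 (6.25 and 8.70), Psmb9 (5.19 and 7.43) and Tap1 (4.31 and 5.56) were far lower, and Nlrc5 (0.821 and 1.53) was last. Neighbours whose Poisson intervals overlapped were Psmb8 with Psmb9 and Psmb9 with Tap1 in control-F2, and Psmb10 with Psmb8 and Psmb8 with Psmb9 in AE-F2. The order of B2m and Tap2 changed between the libraries, with Tap2 higher in control-F2 and B2m higher in AE-F2. These levels depend strongly on the transcript taken. With the longest transcript in place of the median, Tap2 stood at 19.7 TPM in control-F2, B2m at 151, H2-D1 at 259, Tapbp at 99.7, Psmb9 at 2.81 and Nlrc5 at 0.372, and the order became H2-K1, H2-D1, B2m, Tapbp and Tap2 in both libraries. The heavy chains stayed first and Nlrc5 last with either length.

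Further class I heavy chains differed among themselves. Of 20 genes of this list in the files, which includes class I-like genes outside the complex, 12 passed the minimum count, of which 4 had an interval above equality and 1 below, beside 13.4% above and 13.4% below among all genes tested, and the median log2 ratio was 0.08. The 4 with the most counts, H2-Q2, H2-T23, H2-T22 and H2-Q4, had log2 ratios of -0.08, 0.08, 0.08 and -0.12, and their intervals included equality. H2-Q6 and H2-Q7, which encode the Qa-2 antigen and were picked out after their values were seen, had the largest ratios of these 12. H2-Q6 had 27 counts in control-F2 and 112 in AE-F2, and H2-Q7 had 14 and 111, ratios of 3.14 and 5.90. H2-Q6 and H2-Q7 are close copies of each other, so the division of reads between them is uncertain. The others of the 12 whose interval left equality, named after their values were seen, were H2-M3 (log2 ratio 0.37) and the class I-like Fc receptor gene Fcgrt (0.61), both higher, and H2-T24 (-0.80, 39 and 29 counts), which was lower.

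The chaperones that fold and load class I molecules and the peptidases that trim peptides, taken as 1 list, differed by small amounts. Of 11 genes, 7 had an interval above equality and 2 below, with a median log2 ratio of 0.07, while 12.2% and 16.1% of all genes averaging 100 counts or more did so. Many of the 11 have far more counts than that, where small differences leave the interval. Those with the most counts were the general chaperone Hspa5 (log2 ratio -0.09), the disulphide isomerase Pdia3 (0.07), calreticulin (Calr, 0.10) and calnexin (Canx, 0.04), whose intervals are narrow because many reads lie behind them. The interval of Hspa5 lay below equality and the other intervals above it.

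Genes that act on class I transcription left equality about as often as all genes did. Among 28 receptors, kinases and factors of the interferon, NF-κB and RFX/NF-Y routes, 4 had an interval above equality, 4 below and 20 including it, beside 13.4% above and 13.4% below among all genes tested, and the median log2 ratio was -0.01. Jak1, Nfkb1, Creb1 and Nfyc, the members with the most counts, had log2 ratios within 0.01 of 0 for the first pair, and -0.09 and -0.03 for the others. Irf1, which acts on the IRF core shown above, had 518 and 745 counts (log2 ratio 0.14, interval -0.02 to 0.31). It was picked out after its values were seen, as were Irf8 (34 and 153 counts, log2 ratio 1.77) and Ciita, the class II transactivator (8 and 81 counts, log2 ratio 2.88), which lymphoid and myeloid cells express. The others above equality were Jak2 (log2 ratio 0.24) and the interferon receptor gene Ifnar2 (0.27). The 4 below equality, also named after their values were seen, were Socs3, a feedback inhibitor of cytokine signals (628 and 522 counts, log2 ratio -0.65, interval -0.82 to -0.48), the RFX subunit gene Rfxank (-0.26), the NF-Y subunit gene Nfya (-0.24) and the NF-κB subunit gene Rela (-0.21).

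A list of 29 interferon-stimulated genes, of which 27 passed the minimum count, had 5 with an interval above equality and 0 below, where all genes had 13.4% above and 13.4% below, and a median log2 ratio of -0.01. Among its members with the most counts, Parp14, Usp18 and Stat2 had log2 ratios of -0.07, -0.04 and -0.10, with intervals that included equality. The class II presentation list had higher ratios, with 8 of 9 genes above equality, a median log2 ratio of 0.59 and Cd74 at 0.56.

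Genes that carry the X2 and Y box cores at the spacing shown above gave a mixed picture. Of the 27 such genes, 21 passed the minimum count, of which 6 had an interval above equality and 4 below, beside 13.4% above and 13.4% below among all genes tested, with a median log2 ratio of 0.06. They include B2m, H2-D1 and H2-K1, from which the spacing was taken, and B2m and H2-D1 are among the 6 above equality. The counts are therefore not independent of these genes. Also included is H2-M3, a class I gene that presents formylated peptides (174 and 293 counts, log2 ratio 0.37, interval 0.09 to 0.65).

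Markers of blood-borne cells differed between the libraries in the same direction as B2m, Tap1, Psmb8, Psmb9 and Nlrc5. Of 10 pan-leukocyte markers, 10 had an interval above equality, beside 13.4% of all genes tested, and their sum was 30.05 CPM in control-F2 and 104 in AE-F2, a ratio of 3.45 (3.13 to 3.81). Their members with the most counts were Laptm5 (157 and 422 counts), Lcp1 (96 and 447), Ptprc (66 and 343) and Coro1a (51 and 234), and none was at 0. The 10 B cell markers summed to 11.7 and 47.0 CPM, and 9 of the 9 kept had an interval above equality, against the same 13.4%. The median log2 ratio of these 9 was 4.86. In control-F2, 9 of the 10 had at most 3 counts and Blk, Fcrla and Cr2 had 0. Cd79a held 178 of the list's 191 counts there and 391 of 998 in AE-F2, so the ratio of the sums, 4.01, is set largely by Cd79a. The 12 T cell and NK cell markers summed to 24 counts in control-F2 and 235 in AE-F2, and only 4 of them passed the minimum count. Cd3d, Cd3e, Cd3g, Cd8b1, Klrb1c and Gzma were at 0 in control-F2. In AE-F2 they had few counts, 5, 10, 10, 11, 2 and 0 in that order. Lck, Cd2, Cd247 and Cd4 held most of that list's AE-F2 counts, with 62, 47, 35 and 38, against 7, 4, 6 and 1 in control-F2. Their part in the class I differences was not tested.

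Markers of other cell types varied in direction, and their counts stand against 13.4% above and 13.4% below equality among all genes tested. Macrophage markers summed to 85.2 and 101 CPM, with 1 of 9 above equality and 1 below, and the gene with the most counts, C1qa, was lower in AE-F2 (log2 ratio -0.25), while Lyz2 was higher (1.96). Dendritic cell markers summed to 17.4 and 23.9 CPM, with 3 of 6 above equality. Endothelial cells, which express class I strongly, had marker sums of 730 and 725 CPM, with 1 of 8 above and 1 below. Mesenchymal markers had 7 of 8 above equality, 4 of them at least 2-fold, which 3.16% of all genes tested reached upwards. Their median log2 ratio was 1.01. Their sum, 240 and 299 CPM, is held mostly by the pericyte gene Rgs5 (2776 and 3835 counts, log2 ratio 0.08), followed by Col3a1 (0.98), Pdgfrb (0.05, interval -0.13 to 0.24) and Col1a2 (0.96). Acinar markers were lower (1697 and 1281 CPM, 7 of 7 below). The part of these cell types in the class I differences was not tested either.

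**Figure D5:**
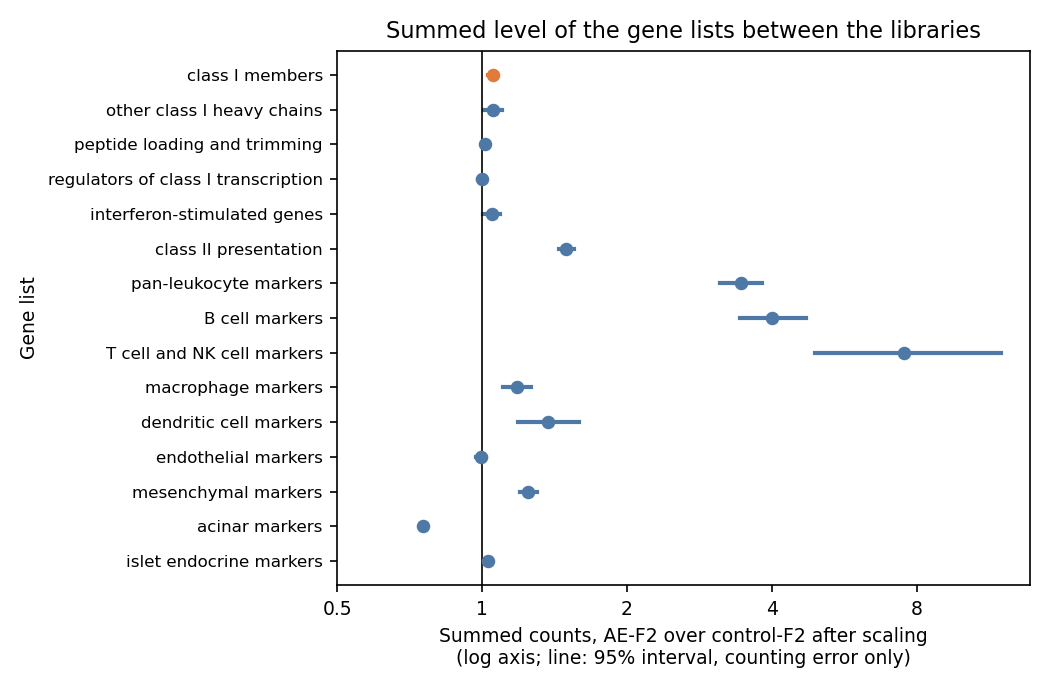
Ratio of summed counts, AE-F2 over control-F2 (log axis), with the 95% counting interval, for the class I presentation genes (orange) and the other gene lists (blue). The class I sum is at 1.05, next to the other class I heavy chains, while the pan-leukocyte, B cell, and T and NK cell lists lie at 3.45, 4.01 and 7.51. Cd79a held 178 of the 191 B cell counts in control-F2, and the median log2 ratio of the 9 B cell genes kept was 4.86. Of the 12 T and NK cell genes, 4 passed the minimum count.

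On the absolute scale the differences were unequal. The level of B2m was 28.4 CPM higher in AE-F2 and that of H2-D1 12.8 CPM higher. Tap1 differed by 3.60 CPM, Psmb8 by 3.26, Tap2 by 2.17, Psmb9 by 1.89, H2-K1 by 1.33 and Nlrc5 by 1.30 CPM. For Tapbp the difference was -7.30 CPM and for Psmb10 -0.0685 CPM, both with counting intervals of the ratio that included equality, as did those of H2-K1 and Tap2.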

How the data were processed

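Gene expression in islets was taken from 2 RNA-seq libraries, control-F2 replicate 1 and AE-F2 replicate 4. For each, the authors deposited a table of estimated counts, scaled for neither depth nor length. The submitters' processing notes name Bowtie2, RSEM and DESeq2, while the paper's methods name HISAT2 for alignment, and the build and annotation of the RNA-seq are not given in the sources used here. Reads of near-identical genes are divided by such counting. Symbols came from GENCODE M21 and matched 21806 of 21899 identifiers. Counts were rounded, genes averaging under 10 counts were left out, and TMM factors were taken from edgeR 4.0.16 in R 4.3.3. The log2 ratio was computed with a pseudocount of 0.5, and Clopper-Pearson intervals on the AE-F2 share of counts with scipy 1.17.1. PCR copies are not independent molecules, so intervals cover counting error only. Pairs of genes were compared by the conditional odds ratio. TPM used the median transcript length, known for 99.6% of genes. The scripts were tested on simulated data.

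Groups follow the labels. The 10 genes and the lists were chosen with earlier results of these data known. Text names all 10 genes, from each list the members with the most counts (4 at most, and in a list of 4 or fewer all), and otherwise genes said to have been picked after their values were seen. The value of 1 gene that this rule covers is not reported here. Alternatives were other scalings with DESeq2 1.42.0 size factors among them, another pseudocount and fold, other minimum counts, thinning, removal of GC and length trends, summed heavy chains and the longest transcript. The X2 and Y box spacing was chosen after the sequences were read.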

Additional observations from a re-analysis of the deposited data

How the results depend on the processing

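Across 90 alternative log2 ratios of the 10 genes, all stayed within the counting interval of the reported value and no called ratio changed sign. Part of this was fixed in advance. A higher minimum count leaves the ratios of the genes kept unchanged. The scalings differed little, with AE-F2 over control-F2 from 1.288 to 1.307 beside 1.303 for TMM. For H2-K1 and H2-D1, 1 alternative was the sum of all heavy chains. The calls of B2m, Tap1, Psmb8, Psmb9 and Nlrc5 were kept wherever they were computed. A minimum mean of 100 counts leaves out Psmb9 and Nlrc5 and brings the median log2 ratio to 0.07, from 0.23. The interval of H2-D1 included equality once trends with GC content and transcript length were removed (log2 ratio 0.03). That of H2-K1 lay above equality only when all class I heavy chains were summed (0.04). With the AE-F2 counts thinned to the control-F2 total, 1 gene lay below equality (Tapbp) and 1 was at least 2-fold higher (Nlrc5). At a fold of 1.5 in place of 2, 1 gene was higher, again Nlrc5. Depth limits Nlrc5 and Psmb9, which have the fewest counts and the widest intervals of the 10. No paired analysis was possible because 1 library per group was analysed, and for the same reason no replicate could be left out.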
